A study of Rattus norvegicus with 20 samples.

Results

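The Creb3-like transcription factors in these data were 4 genes of the CREB3 family, chosen by their symbols: Creb3l1 (ENSRNOG00000005413), Creb3 (ENSRNOG00000016452), Creb3l2 (ENSRNOG00000012826) and Creb3l4 (ENSRNOG00000023493). They were 4 of the 32402 genes in the deposited tables. A further family gene, Creb3l3, was not among those chosen and had between 0 and 4.22 normalized counts in every library. Polyadenylated RNA was sequenced from punches of the hypothalamic supraoptic nucleus (SON) of male Wistar Han rats, the nucleus whose magnocellular neurones make vasopressin and oxytocin. The 4 groups of 5 rats each were adult (3 months) euhydrated (EH), adult dehydrated (DH), aged (18 months) EH and aged DH. EH rats drank freely, and DH rats had no water, for 2 days by the sample labels and for a longer period by the study's methods. A punch holds neurones, glia and vessels, so fewer cells of a type and less RNA per cell cannot be told apart.

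CREB3 family proteins are bZIP transcription factors that are made as membrane proteins of the endoplasmic reticulum (ER). On a signal they move to the Golgi, where the site-1 protease (encoded by Mbtps1) and the site-2 protease (Mbtps2) cut them and set free the part that enters the nucleus. The family is known for raising the capacity of the early secretory pathway in cells that secrete heavily, and Creb3l1 is known in the SON as a regulator of Avp, the vasopressin gene. Transcript levels, which were measured here, do not show how much of a protein has been cut.

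Creb3l1 and Creb3 rose in DH at both ages, and Creb3l2 and Creb3l4 passed no test. In adults, 2 of the 3 members tested rose, where 7.67% of all 15280 genes tested rose and 4.99% fell (12.7% in either direction) at a limma adjusted p under 0.05. In aged rats, 2 of the 4 members tested rose, where 4.05% of all 15346 genes rose and 3.25% fell (7.29% in either direction). Creb3l1 rose 3.76-fold in adults and 2.47-fold in aged rats, and Creb3 rose 1.25-fold and 1.19-fold. No member of 4 passed the test between aged EH and adult EH, where 2.69% of 15369 genes were higher in aged rats and 3.30% lower (5.99% in either direction). For how far the DH response differed by age, limma called 0 of 15326 genes (0%), and 1522 genes (9.93%) had an unadjusted p under 0.05, Creb3l1 among them. No other tool was run on that difference.

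Promoter windows were at hand for 4 of the 4 members from RefSeq (GRCr8), each running from 250 bases before to 50 bases after the gene's start. The windows of Creb3l1 (chr3:98449055-98449354, minus strand), Creb3 (chr5:62613402-62613701, plus strand) and Creb3l2 (chr4:66990783-66991082, minus strand) are printed 5′ to 3′, because these are the 2 members that rose in DH and the well-expressed member that did not pass the test. Capitals mark matches to the letters searched.
Creb3l1: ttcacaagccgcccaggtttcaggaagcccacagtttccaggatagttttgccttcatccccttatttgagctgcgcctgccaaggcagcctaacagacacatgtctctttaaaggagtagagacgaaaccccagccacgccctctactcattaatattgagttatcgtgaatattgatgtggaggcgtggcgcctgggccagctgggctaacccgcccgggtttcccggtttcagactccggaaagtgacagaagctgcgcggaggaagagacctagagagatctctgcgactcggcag
Creb3: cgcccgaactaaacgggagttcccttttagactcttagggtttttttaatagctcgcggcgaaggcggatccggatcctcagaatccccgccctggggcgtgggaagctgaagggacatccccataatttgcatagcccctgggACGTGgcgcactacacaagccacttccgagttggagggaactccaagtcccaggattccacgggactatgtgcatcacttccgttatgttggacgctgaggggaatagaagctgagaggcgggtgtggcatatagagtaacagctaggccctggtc
Creb3l2: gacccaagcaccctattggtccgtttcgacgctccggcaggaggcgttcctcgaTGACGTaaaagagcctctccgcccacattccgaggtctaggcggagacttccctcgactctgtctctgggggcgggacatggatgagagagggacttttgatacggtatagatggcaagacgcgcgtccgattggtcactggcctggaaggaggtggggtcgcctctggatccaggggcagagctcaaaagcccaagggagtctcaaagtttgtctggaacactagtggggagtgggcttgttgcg

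The letters searched on both strands were TGACGTCA (the full cAMP response element, which reads the same on both strands), TGACGT (its first part, and so held by every full element), ACGTG (a part of some but not all ER stress elements, which can share letters with TGACGT) and TGAGTCA (the AP-1 element). Other forms of ER stress element were not searched for. The Creb3 window held ACGTG between 106 and 102 bases before the start, and the Creb3l2 window held TGACGT between 196 and 191 bases before the start. The windows of Creb3l1 and Creb3l4 held none of the searched letters. Of all 33469 windows of this length, 1.83% held TGACGTCA, 7.94% TGACGT, 19.3% ACGTG and 4.63% TGAGTCA. A match is a description of the letters and not a site of binding.

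Values are normalized counts, that is, the authors' read counts divided by a size factor for each library, and a log2 fold change (LFC) is a difference of log2 of the normalized count plus 1. Adult libraries held between 24268398 and 28491926 reads on genes. Aged libraries summed to between 27801540 and 28689164 normalized counts in the aged DH table, and their read numbers were not recovered. Avp and Oxt were high in all 20 libraries, with lowest values of 115719 and 72460 normalized counts on a scale made common to the 20 libraries. Of the markers checked, the fibroblast gene Col1a2 was listed at 0 in all 20 libraries and the neuronal gene Eno2 did not exceed 16.7, whereas their companions Col1a1 and Map2 had medians of 1317 and 42856. A set of 6 adult libraries, 3 EH and 3 DH, whose labels end in the consecutive suffixes S64 to S69, stood apart from the other 14. ND6, a mitochondrial gene encoded on the opposite strand to most mitochondrial genes, had 517 to 852 normalized counts in these 6 libraries, 2242 to 3560 in the other 4 adult libraries and 2112 to 3937 in the 10 aged libraries. The labels do not say what the suffix marks. ND6 and this set were picked out after the values of Creb3l4 had been seen, and each member is given with and without the set.

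Creb3l1 encodes the family member also named OASIS, known from bone-forming cells and astrocytes as well as from the SON. In adult EH rats 1, 2, 4, 5 and 6 it had 548, 437, 665, 631 and 525 normalized counts. In adult DH rats 1 to 5 it had 1774, 2161, 2270, 2453 and 1875. The lowest adult DH value was 2.67 times the highest adult EH value, and the groups did not overlap, which held for 6.81% of all genes tested in the upward direction. The LFC was 1.91 (SE 0.110, 95% interval 1.68 to 2.15, adjusted p = 2.32e-07). By LFC it was number 16 of the 15280 genes tested, and number 8 by p.

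The rise of Creb3l1 in adults held in both sets of libraries. Within S64 to S69 (3 EH and 3 DH rats) the LFC was 1.77 (SE 0.106, adjusted p = 2.99e-05), and in the other 4 adult libraries (2 EH and 2 DH rats) it was 2.13 (SE 0.147, adjusted p = 0.00156). On the whole reads recovered from the adult table, edgeR gave 1.91 and DESeq2 gave 1.91.

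Creb3l1 also rose in DH in aged rats. Aged EH rats 1, 2, 4, 5 and 6 had 997, 655, 1190, 883 and 562 normalized counts, and aged DH rats 1, 2, 3, 5 and 6 had 2683, 1814, 2161, 1942 and 1742. The groups did not overlap, which held for 4.12% of all genes tested in the upward direction. The LFC was 1.30 (SE 0.174, 95% interval 0.93 to 1.68, adjusted p = 7.76e-04), and Creb3l1 was number 27 of 15346 genes by LFC and number 53 by p. The standard error was larger than in adults, and the coefficient of variation of the aged EH rats was 29.7%, against 16.1% in adult EH rats.

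Between aged EH and adult EH rats, Creb3l1 had a mean of 859 ± 253 normalized counts (SD, n = 5) against 585 ± 94.6 (SD, n = 5) in the ageing table. Rats 2 and 6 of the aged EH group, at 656 and 566, lay within the adult range of 455 to 694, and the other 3 aged rats lay above it. The LFC was 0.52 (SE 0.174, 95% interval 0.14 to 0.89) with an unadjusted p of 0.0102 and an adjusted p of 0.103 in limma, so the difference did not pass the threshold. Without aged EH rat 6, the LFC was 0.65 (adjusted p = 0.0261 in limma) and passed it. Against only the 2 adult EH rats outside S64 to S69 the LFC was 0.70 (adjusted p = 0.227), and against only the 3 within it 0.39 (adjusted p = 0.364). None of the 4 members was non-overlapping in this comparison, where 2.95% of all genes had every aged EH rat above every adult EH rat.

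The LFC of Creb3l1 in DH was smaller in aged than in adult rats by 0.61 (difference -0.61, SE 0.230, 95% interval -1.08 to -0.13). Its unadjusted p was 0.0148, number 591 of 15326 genes by p, and its adjusted p was 0.383 in limma, so a difference between the ages was not shown across all genes. With each rat left out in turn the difference ran from -0.75 to -0.48. The comparison of aged EH with adult EH shares its control rats with the adult DH comparison and its aged rats with the aged DH comparison, so these LFCs are not independent of each other.

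On the common scale the order of Creb3l1 levels was adult DH (2147 ± 286), aged DH (2030 ± 372), aged EH (841 ± 248) and adult EH (572 ± 92.2; SD, n = 5 in each). The rats of the DH groups overlapped with each other, and so did the rats of the EH groups. Every DH rat of either age, with a lowest value of 1706, stood above every EH rat, with a highest value of 1164. Creb3 separated in this way too, and how many of all genes did so over both ages was not counted. The ratio of Creb3l1 to Creb3l2 within a library does not depend on the scaling. It was 0.692 ± 0.109 in adult EH, 2.42 ± 0.254 in adult DH, 0.927 ± 0.242 in aged EH and 2.29 ± 0.337 in aged DH rats (SD, n = 5 in each). The mean ratio was 3.50 times higher in DH than in EH in adults and 2.47 times higher in aged rats.

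**Figure D1:**
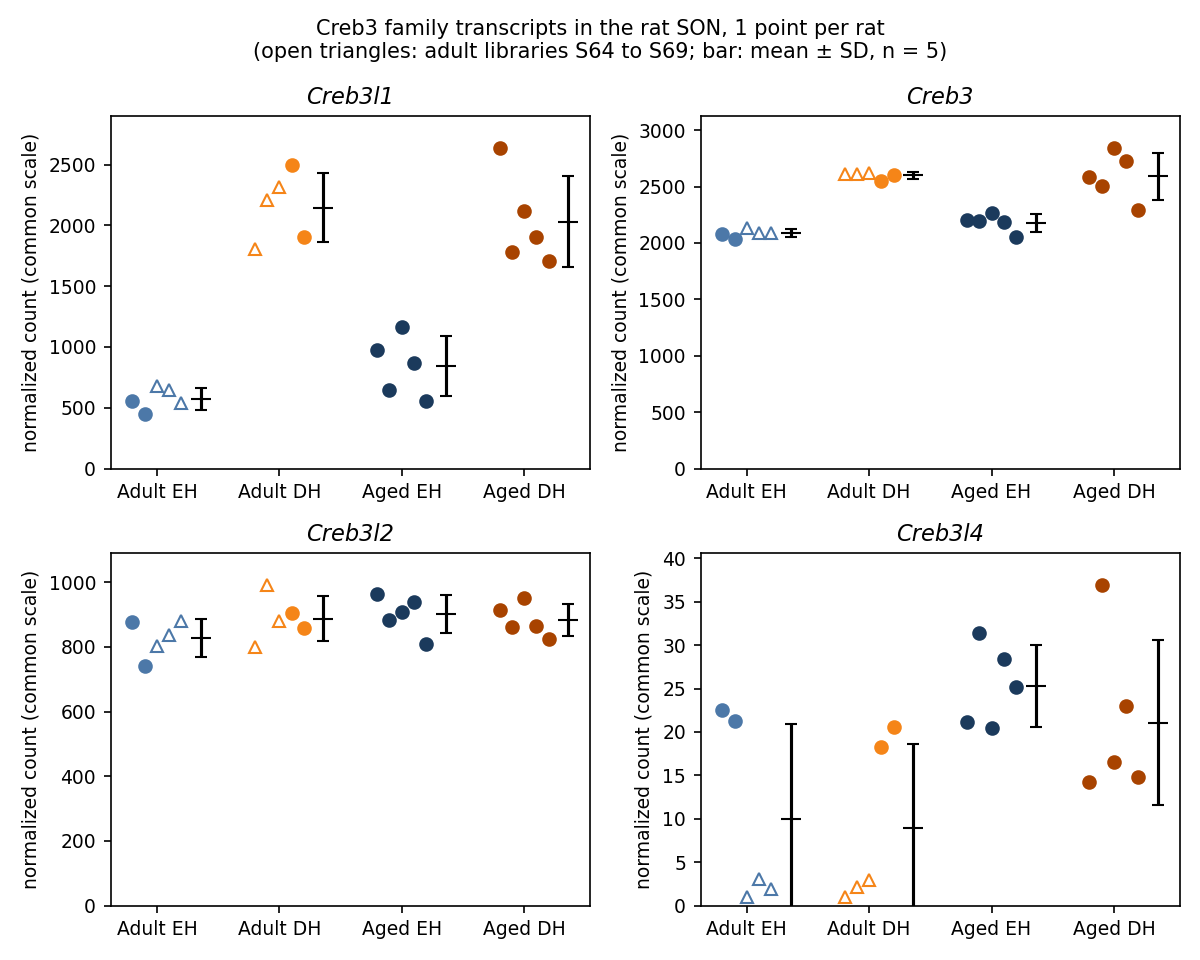
Normalized counts on the common scale (y axis, from 0) of the 4 family members in each rat (points), by group (x axis), with the mean ± SD (n = 5) beside each group; open triangles are the adult libraries S64 to S69. Every DH rat of either age lies above every EH rat for Creb3l1 and, by a small gap, for Creb3. Creb3l2 overlaps between all groups, and Creb3l4 splits the adult rats by library suffix.

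Creb3, also named Luman, encodes the founding member, which binds the host cell factor encoded by Hcfc1. Its change was small and its spread in adults was narrow. Adult EH rats 1, 2, 4, 5 and 6 had 2043, 2003, 2092, 2049 and 2050 normalized counts, and adult DH rats 1 to 5 had 2561, 2558, 2576, 2501 and 2562. The groups did not overlap, which held upward for 6.81% of all genes tested. The coefficients of variation were 1.55% in EH and 1.14% in DH. The LFC was 0.32 (SE 0.027, 95% interval 0.26 to 0.38, adjusted p = 5.24e-06). By p Creb3 was number 44 of the genes tested in adults, and by LFC number 870.

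Within S64 to S69 the adult LFC of Creb3 was 0.31 (adjusted p = 0.00260 in limma), and in the other 4 adult libraries 0.32 (adjusted p = 0.0440). In aged EH rats 1, 2, 4, 5 and 6 Creb3 had 2241, 2236, 2318, 2227 and 2084 normalized counts. Aged DH rats 1, 2, 3, 5 and 6 had 2631, 2546, 2894, 2778 and 2343. The aged groups did not overlap, which held upward for 4.12% of all genes tested. However, aged DH rat 6 lay only 25.3 normalized counts above the highest aged EH rat. The LFC was 0.25 (SE 0.052, 95% interval 0.13 to 0.36, adjusted p = 0.0110).

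Between aged EH and adult EH rats the LFC of Creb3 was 0.06 (95% interval -0.01 to 0.13, adjusted p = 0.358 in limma). The LFC in DH differed between the ages by -0.07 (95% interval -0.20 to 0.05, adjusted p = 0.743). On the common scale adult DH (2600 ± 28.9) and aged DH rats (2590 ± 210) overlapped, as did aged EH (2180 ± 79.6) and adult EH rats (2086 ± 33.7; SD, n = 5 in each). The aged DH rats were the most widely spread of these 4 groups, with a coefficient of variation of 8.09%. Across both ages, the lowest Creb3 value in DH (2295, aged) stood just above the highest in EH (2268, aged). The share of all genes with such a separation was not counted.

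Creb3l2, also named BBF2H7, is known from cartilage, where it raises genes of vesicle transport such as Sec23a. Its levels overlapped between all 4 groups. It ran from 728 to 862 normalized counts in adult EH rats and from 785 to 970 in adult DH rats, with an LFC of 0.10 (SE 0.062, 95% interval -0.03 to 0.23, adjusted p = 0.330). In aged rats it ran from 823 to 980 in EH and from 841 to 970 in DH, with an LFC of -0.03 (SE 0.056, 95% interval -0.15 to 0.09, adjusted p = 0.843).

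The intervals of Creb3l2 leave room for a rise of 0.23 on the log2 scale in adults and of 0.09 in aged rats, so changes as large as those of Creb3l1 lay outside them. Between aged EH and adult EH the LFC of Creb3l2 was 0.12 (95% interval -0.01 to 0.25, adjusted p = 0.281). The responses of the 2 ages differed by -0.13 (95% interval -0.30 to 0.05, adjusted p = 0.670). In both sets of adult libraries the LFC of Creb3l2 in DH stayed small, at 0.08 within S64 to S69 and 0.13 outside.

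Creb3l4, also named AIbZIP or Tisp40, is known from prostate and testis and was low in the SON. In adults its values fell into separate ranges by library suffix. Adult EH rats 1, 2, 4, 5 and 6 had 22.1, 20.9, 0.927, 3.04 and 1.93 normalized counts, and adult DH rats 1 to 5 had 0.967, 2.07, 2.94, 18.0 and 20.2. In whole reads, the 6 libraries S64 to S69 held 1 to 3 reads each, and the other 4 adult libraries held 16 to 23. The 6 low libraries are those with low ND6, and both EH and DH rats were among them.

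All 10 aged libraries resembled the adult libraries outside S64 to S69. Aged EH rats 1, 2, 4, 5 and 6 had 21.5, 32.0, 20.9, 29.0 and 25.7 normalized counts of Creb3l4, and aged DH rats 1, 2, 3, 5 and 6 had 14.6, 37.5, 16.8, 23.4 and 15.1. The aged groups overlapped, with an LFC of -0.33 (SE 0.261, 95% interval -0.88 to 0.23, adjusted p = 0.527). In adults the mean of 9.32 lay under the minimum of 10 that a gene needed to be tested, so no LFC is given.

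Between aged EH and adult EH the LFC of Creb3l4 was 1.98 (SE 0.617, 95% interval 0.66 to 3.31, adjusted p = 0.0784). By LFC it was number 15 of 15369 genes, but the value rested on the 3 adult EH libraries of S64 to S69. Without them the LFC was 0.18 (SE 0.268), and with only them in the adult group it was 3.19. With membership of S64 to S69 as a term in the fit, the LFC was 0.18. These values are given with no test, because the set was picked out after the values of Creb3l4 had been seen. No aged library belonged to the set. ND6 moved in the same way, with an LFC of 1.37 over all rats and 0.20 without the set, and what sets these libraries apart was not tested. Jtb and Slc39a1, the genes next to Creb3l4 in the RefSeq order, did not share the split. Jtb had 1151 to 1398 normalized counts in S64 to S69 and 1178 to 1382 in the other 4 adult libraries, and Slc39a1 had 1380 to 1524 and 1404 to 1602. Whether the authors' counting used the strand of the reads is not given in the sources used here.

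**Figure D2:**
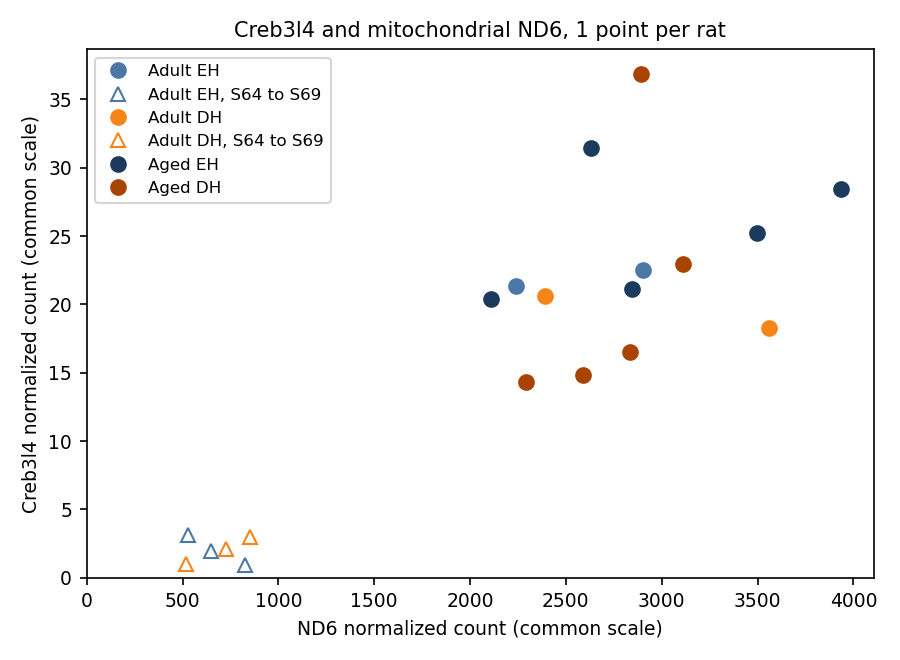
Normalized counts on the common scale of Creb3l4 (y axis) against mitochondrial ND6 (x axis) in the 20 rats, coloured by group, with open triangles for the adult libraries S64 to S69. In these 6 libraries the highest values are 3.10 for Creb3l4 and 852 for ND6, and in the other 14 the lowest are 14.3 and 2112.

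**Figure D3:**
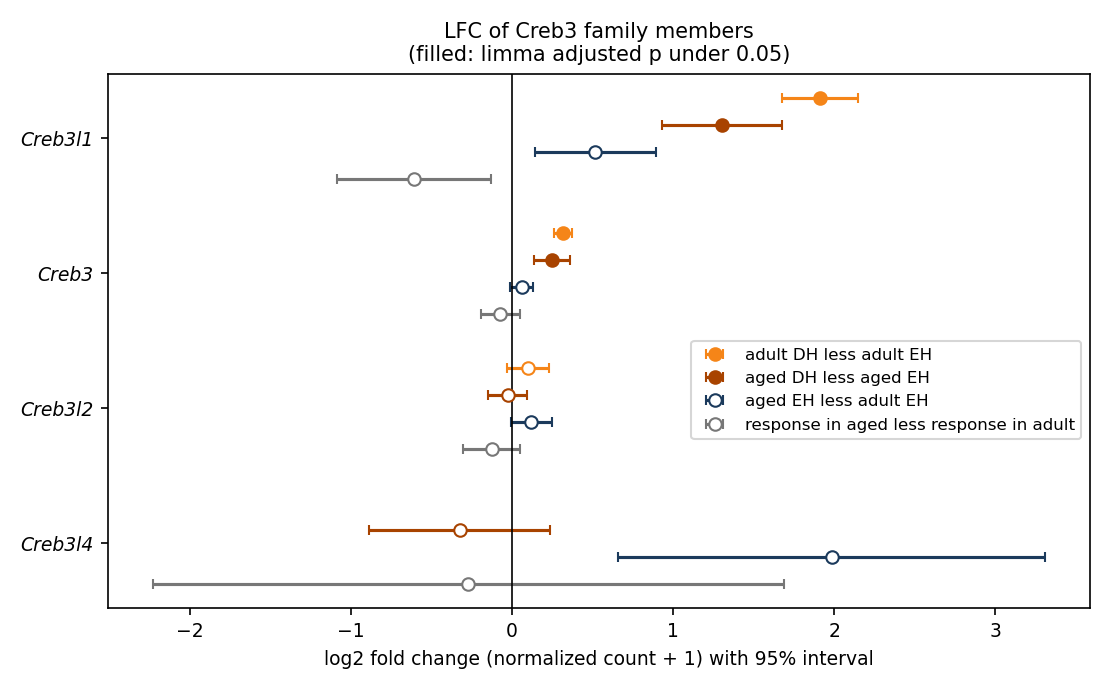
LFC of the 4 members (rows) on the log2 scale (x axis) with 95% intervals from limma, for adult DH, aged DH, ageing and the difference between the ages; filled points passed an adjusted p of 0.05. Filled points are the DH responses of Creb3l1 (1.91 and 1.30) and of Creb3 (0.32 and 0.25), and Creb3l4 was not tested in adult DH.

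Of the genes that process or turn over CREB3 proteins, 7 of 7 were tested in each comparison. In adult DH 1 of the 7 rose and none fell, where 7.67% of all genes rose, and in aged DH and ageing none passed the test. The gene that rose was Syvn1, an ER ubiquitin ligase, by 0.15 (SE 0.035, adjusted p = 0.0132 in limma). The proteases that cut the family had LFCs near 0, with -0.01 for Mbtps1 (adjusted p = 0.844) and 0.05 for Mbtps2 (adjusted p = 0.689) in adult DH. In aged DH they were -0.02 (adjusted p = 0.829) and 0.03 (adjusted p = 0.881). The median LFC of the list was -0.003 in adult DH and -0.03 in aged DH, beside -0.007 and -0.003 over all genes tested.

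Among 18 other CREB and ATF factors and partners, all tested, 5 rose and 1 fell in adult DH and 4 rose and none fell in aged DH. Over all genes tested, 7.67% rose and 4.99% fell in adult DH, 4.05% and 3.25% in aged DH, and 2.69% and 3.30% in ageing. Atf5, Crem, Atf4 and Ddit3 rose at both ages. Atf5, a factor of the stress response, rose by 0.63 (SE 0.053) in adults and 0.50 (SE 0.101) in aged rats. Crem, a cAMP-responsive modulator, rose by 0.55 (SE 0.074) and 0.44 (SE 0.056), and Atf4, the central factor of the integrated stress response, by 0.52 (SE 0.033) and 0.43 (SE 0.066). Ddit3, which Atf4 is known to raise, rose by 0.28 (SE 0.052) and 0.30 (SE 0.068). The other adult calls, named after their values were seen, were Atf6 (0.14, a membrane-bound ER stress factor cut by the same proteases) and Crtc1 (-0.13, a CREB coactivator). In ageing 4 rose (Atf5, Ddit3, Atf4 and Crebrf, by 0.39, 0.28, 0.27 and 0.21) and none fell. With 1 rat left out, 1 to 3 of the list were called in ageing (2 without adult EH rat 2 or 5 and 1 without adult EH rat 4). The median LFC of the list was 0.04 in adult DH, 0.07 in aged DH and 0.02 in ageing.

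Of 9 genes reported elsewhere as targets of CREB3 family factors, 5 rose and none fell in adult DH, and 2 rose and none fell in aged DH. The shares over all genes tested were 7.67% up and 4.99% down in adult DH, 4.05% and 3.25% in aged DH, and 2.69% and 3.30% in ageing. Cdkn1a, a cell cycle inhibitor, rose by 0.92 (SE 0.102) in adults and 0.41 (SE 0.106) in aged rats, and Hspa5, the main ER chaperone, by 0.47 (SE 0.039) and 0.38 (SE 0.053). Pcsk1, a prohormone convertase, rose by 0.76 (SE 0.081) in adults. Arf4, a small GTPase of the Golgi, rose by 0.11 in adults and is named after its value was seen. The remaining adult call of the 5 was Avp, whose values and their dependence on the settings follow below. In ageing Pcsk1, Hspa5 and Herpud1 rose by 0.48, 0.21 and 0.16, and Col1a1, a collagen gene that is also a fibroblast marker, fell by 1.66. These counts depended on single rats. With 1 rat left out, 1 to 3 of the list were called in ageing (1 without aged EH rat 4 or 5 or adult EH rat 2, and 2 without aged EH rat 2 or adult EH rat 1, 4 or 5). In aged DH 1 was called without aged EH rat 2 or 5 or aged DH rat 1, 2 or 5, and in adult DH 3 were called without adult DH rat 3. The median LFC of the list was 0.17 in adult DH, 0.11 in aged DH and 0.11 in ageing.

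Avp ran from 113731 to 195535 normalized counts in adult EH rats and from 190584 to 255875 in adult DH rats, and the groups overlapped. Its LFC was 0.48 (SE 0.124, 95% interval 0.21 to 0.75, adjusted p = 0.0221). The call was lost with no variance trend in limma (adjusted p = 0.0677), with adult EH rat 5 left out (adjusted p = 0.0506) and with adult DH rat 3 left out (adjusted p = 0.0587). Within S64 to S69 the LFC was 0.42 (adjusted p = 0.0564 in limma) and in the other 4 adult libraries 0.56 (adjusted p = 0.283). In aged rats Avp ran from 146514 to 261426 in EH and from 196831 to 325751 in DH, with an LFC of 0.21 (SE 0.161, adjusted p = 0.502). The LFC of Avp in ageing was 0.28 (adjusted p = 0.388), and its responses at the 2 ages differed by -0.27 (95% interval -0.74 to 0.20, adjusted p = 0.754).

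The early secretory list held 53 symbols of translocation into the ER and of vesicle transport between the ER and the Golgi, which the fly member of the family is known to act on. Of the 49 that were found and tested, 15 rose and none fell in adult DH, and 8 rose and 1 fell in aged DH. Over all genes tested, 7.67% rose and 4.99% fell in adult DH, and 4.05% rose and 3.25% fell in aged DH. Tmed3, a cargo receptor of such vesicles, rose by 0.48 (SE 0.052) in adults and 0.32 (SE 0.083) in aged rats. Ssr1, part of the translocon, rose by 0.32 (SE 0.052) and 0.25 (SE 0.061), and Ergic1, of the compartment between ER and Golgi, by 0.31 (SE 0.035) and 0.24 (SE 0.063). Lman1, a lectin that carries glycoproteins out of the ER, rose by 0.29 (SE 0.049) in adults, and Tmed10, a cargo receptor, by 0.25 (SE 0.047) in aged rats. Sec16a, which marks ER exit sites and is named after its value was seen, fell by 0.15 in aged DH. In adults 43 of the 49 LFCs were above 0, with a median of 0.07, and in aged rats 41 were, with a median of 0.06. The medians over all genes tested were -0.007 and -0.003. Within S64 to S69 alone 5 of the list were called in adult DH, and in the other 4 adult libraries alone 4. These sets hold fewer rats, and calls over all genes fell in them too, as given below. In aged DH, 3 to 11 of the list were called with 1 rat left out, and the lower counts were 5 without aged EH rat 1, 4 without aged EH rat 5 or aged DH rat 3 and 3 without aged DH rat 5.

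In ageing 4 of the 49 secretory genes rose and none fell, where 2.69% of all genes rose and 3.30% fell. Of the list, 1 was called without aged EH rat 2, 4 or 5 or adult EH rat 1, 2, 4 or 5 and 2 without aged EH rat 1. The 4 were Tmed3 (0.39), Ssr1 (0.21), Ergic1 (0.18) and Mia3 (0.13), and their adult EH rats are the controls of the adult DH comparison. The median LFC of the list in ageing was 0.02. Without S64 to S69, and likewise with no variance trend in limma, 0 of the secretory genes and 0 of the 18 other factors were called in ageing. Calls over all genes also fell in both fits, as given below, so these counts do not set the lists apart. No gene of these 4 lists passed the test for a DH response that differed by age. That test called 0 of all 15326 genes (0%), so it does not set the lists apart.

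**Figure D4:**
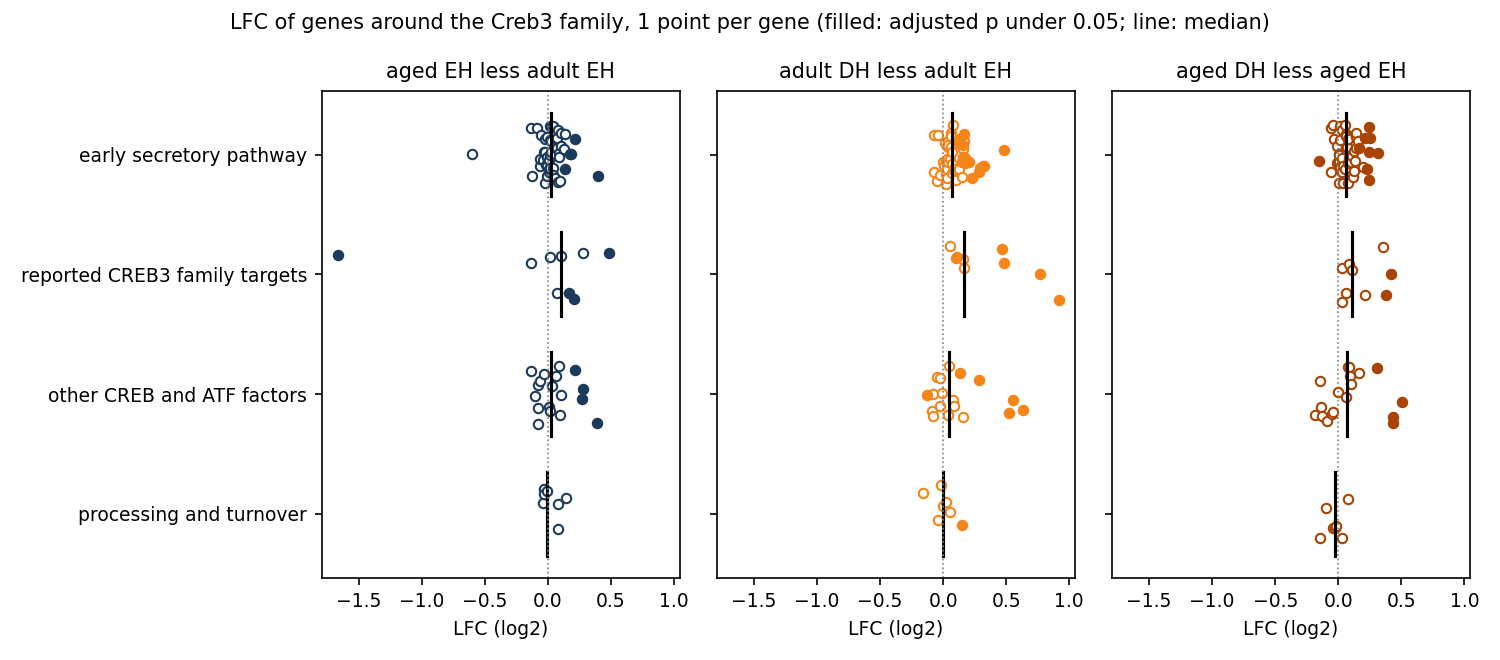
LFC on the log2 scale (x axis) of single genes (points) in 4 lists around the family (rows) for ageing, adult DH and aged DH (panels); filled points passed an adjusted p of 0.05 and black lines are list medians. In the early secretory list, filled points lie above 0 in adult DH (15 genes) and, with the exception of 1 gene, in aged DH (8 above 0).

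Levels of cell type markers moved with some of these comparisons. Beside the marker counts, 7.67% of all genes rose and 4.99% fell in adult DH, and 4.05% rose and 3.25% fell in aged DH. The summed level of 6 magnocellular markers (Avp, Oxt, Pdyn, Nos1, Scg2 and Gal) was 230269 to 322389 in adult EH and 339397 to 448038 in adult DH rats, and 4 of 6 rose. In aged rats it was 284255 to 399969 in EH and 349216 to 557831 in DH, and 3 of 6 rose. Avp and Oxt, with medians of 198970 and 89519 normalized counts over the 20 libraries, dominate these sums. Oxt and Gal passed the test in neither DH comparison. In aged DH, where Creb3l1 rose, 3 of 5 forebrain glutamatergic markers fell (Neurod6 with an LFC of -2.49, Slc17a7 of -1.92 and Neurod2 of -1.86), and the summed level of the list was 1637 to 3971 in aged EH and 835 to 1568 in aged DH rats. It was 939 to 3148 in adult EH and 926 to 2366 in adult DH, and none of these 5 markers passed the test in adults. Single markers of other cell types also passed the test in DH. They were Mobp (oligodendrocyte, 0.35) and Aldoc (astrocyte, 0.15) in aged rats, and Cnp (oligodendrocyte, -0.27) and Slc6a13 (meningeal, 0.40) in adults. Aldoc did not stand for its list, as 4 of the 6 astrocyte markers had an LFC below 0 in aged DH, with a median of -0.07. The oligodendrocyte list summed to 246184 to 315005 in adult DH and 253431 to 302363 in aged DH rats, and all 6 of its LFCs in aged DH were above 0. Their part in the results of the family was not tested.

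Beside the ageing values, where 2.69% of all genes rose and 3.30% fell, 4 of 6 oligodendrocyte markers fell. Their summed levels were 257701 to 378410 in adult EH and 230849 to 280125 in aged EH rats. In the same comparison 3 of 6 microglia markers rose, with summed levels of 4784 to 5405 in adult EH and 5655 to 6753 in aged EH rats. Of 5 fibroblast and meningeal markers tested 3 fell, and the list summed to 9000 to 10410 in adult EH and to 3519 to 6432 in aged EH rats. Of 6 astrocyte markers 2 fell (132509 to 158876 in adult EH, 127717 to 153713 in aged EH), and of 4 endothelial markers 1 fell. None of 4 general neuronal markers and none of 3 choroid plexus and ependymal markers tested passed the test in any comparison, and the neuronal summed level was 77306 to 80996 in adult EH and 78684 to 85358 in aged EH.

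The genes whose levels were most like those of Creb3l1 across rats, among 12576 genes, were Tnfaip6, Nptxr, Wdr64, Mmd and Calr. Likeness was the smaller of 2 Pearson correlations, over the 10 adult and over the 10 aged libraries, and the points share the contrast of DH with EH. For Tnfaip6, a hyaluronan-binding secreted protein, r was 0.990 in adults and 0.970 in aged rats, and its own LFCs in DH were 2.99 and 1.99. For Wdr64 r was 0.982 and 0.970, with LFCs of 2.92 and 2.00. Nptxr, a neuronal pentraxin receptor, had r of 0.970 and 0.980 with LFCs of 0.71 and 0.34. Mmd had r of 0.980 and 0.965. Calr, an ER chaperone of glycoproteins, had r of 0.964 and 0.975 with LFCs of 0.40 and 0.32.

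For Creb3 the genes most alike were Nomo1, Pdcd6, Shmt2, Eprs and Ptpn9, with r from 0.948 to 0.973 in each age. Nomo1, part of an ER membrane complex, had LFCs of 0.32 and 0.17 in adult and aged DH, Shmt2, a mitochondrial enzyme of serine metabolism, 0.50 and 0.44, and Eprs, an aminoacyl-tRNA synthetase, 0.31 and 0.32. For Creb3l2, which passed no test, likeness was lower. Its closest genes were Tcf7l1, Cst6, Sgta, Wwp2 and Pdxdc1, with r from 0.692 to 0.873. Creb3l4 was too low for this measure, which needed a mean of at least 50. These correlations are descriptions over rats that differ in group.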

How the data were processed

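Libraries of poly(A) RNA from SON punches of 20 rats were made by the authors with a stranded mRNA kit. Per the labels and the study's methods, reads were checked with FastQC, aligned with STAR to the rat assembly Rn6, counted per gene with featureCounts and normalized with DESeq2, while no version of FastQC, STAR or featureCounts and no strand setting of the counting was given. The deposited signal in each library's column is the authors' read count divided by a DESeq2 size factor, set within each of 3 tables (ageing, adult DH and aged DH). The authors' log2 fold changes, their standard errors, test scores, p-values and adjusted p-values in the same tables were not used. Each of the 30 per-sample columns entered the analysis.

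The analysis scale was log2(normalized count + 1). Genes whose mean in a comparison reached 10 were tested with limma 3.58.1 in R 4.3.3, two-sided, with moderation that follows the mean and Benjamini-Hochberg adjustment over all genes tested (threshold 0.05). The difference between the ages was fitted over the 20 rats, each from the DH table of its age. Levels across tables are on a common scale from median-of-ratios factors over 16276 genes (0.978 to 1.02). In the adult DH table all values were whole multiples of a library's step within 0.1 read, so whole reads were recovered and also tested with edgeR 4.0.16 and DESeq2 1.42.0. limma was tested on simulated data. Alternatives were a pseudocount of 10, no filter, size factors over the 20 libraries, no variance trend, a replicate block and leaving out each rat. The set S64 to S69 and its 3 alternatives were chosen after seeing the data. Depth limits low genes most, and p-values set a difference against the spread between rats. By the study's methods whole cages were assigned to EH or DH, and the labels give no cage. Each rat was treated as independent, and an effect of the cage was not tested.

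Groups were taken from the labels. The members, the gene lists and the tests were chosen with earlier results of these data known. Named genes are the members, up to 4 called genes of largest absolute LFC per list and comparison, Avp, Mbtps1 and Mbtps2, and the 5 genes most like each member with a mean of at least 50. Symbols came from the deposited tables, and 4 symbols of the secretory list and 4 of the marker lists were not found. Promoter windows came from RefSeq (GRCr8), an assembly other than Rn6, so no position of a member in Rn6 is given. Transcript lengths were not at hand, so no level was corrected for length. Ratios and levels of different genes set side by side therefore do not give their relative numbers of transcripts. Figures were drawn with matplotlib 3.10.9.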

Additional observations from a re-analysis of the deposited data

Results flagged for a closer look

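Creb3 in adult DH rat 4, with 2501 normalized counts, lay apart from the other 4 adult DH rats, which ran from 2558 to 2576. Its gap to the nearest rat was 0.764 of the whole range of the group, above Dixon's 95% critical value for 5 samples. It was the only such rat in 24 sets of 5 values of the 4 members. Chance flags about 1 in 20 separate sets, but EH rats stand in more than 1 table, so the 24 sets are not all separate. The rat still stood above every adult EH rat, of which the highest had 2092, and without it the LFC of Creb3 in adult DH was 0.32 (adjusted p = 1.96e-05 in limma).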

How the results depend on the processing

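The rise of Creb3l1 and Creb3 in DH kept its direction and its call under every alternative run, with LFCs of 1.77 to 2.13 and 0.31 to 0.33 in adults and 1.17 to 1.44 and 0.21 to 0.29 in aged rats. Of the LFCs of the members and Avp, 370 of 385 alternative values kept direction and call. Label numbers do not pair the rats: deviations of same-numbered rats correlated at -0.05 to 0.12 in ageing, -0.08 to 0.13 in adult DH and -0.06 to 0.16 in aged DH, and in each comparison a single number was best matched by its own. With the replicate block, Creb3l1 in ageing passed the threshold (LFC 0.52, adjusted p = 0.0183), and the genes called were 987 in adult DH against 1934, 653 in aged DH against 1119 and 1 against 0 for the difference between the ages. With no variance trend the calls were 516 in ageing against 921, 671 in aged DH and 1 for the difference. The cause was not tested.

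Without the adult libraries S64 to S69, which leaves fewer rats, 147 genes were called in ageing and 216 in adult DH. With only them in the adult groups the calls were 415, 658 and, for the difference, 1, and with a term for them 186 in ageing. Creb3l4 in ageing had an LFC of 3.19 with only that set, which was picked out by its values. Leaving out each rat in turn gave 594 to 906 calls in ageing, 678 to 1186 in aged DH and 0 to 5 for the difference, LFCs in ageing of 0.39 to 0.65 for Creb3l1 and 1.54 to 2.44 for Creb3l4 (called without adult EH rat 1 or 2), and -0.73 to 0.17 for Creb3l4 in the difference between the ages, where its sign turned without adult EH rat 4 (0.17) or 6 (0.02) or adult DH rat 4 (0.13) or 5 (0.17). Avp in adult DH was not called with no variance trend (adjusted p = 0.0677) or with the replicate block (0.0875). The early secretory calls in adult DH ran from 10 to 16 as rats were left out and were 9 with the block, and in ageing they ran from 1 to 6. With no variance trend they were 3 in aged DH against 9, and the target list had 3 calls in adult DH against 5 and 1 in aged DH against 2. Planned edgeR fits of the ageing and aged DH tables were not run, because whole reads were not recovered there. Creb3l4 in adults rests on few reads.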
